A study of Mus musculus with 14 samples.

Results

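H3K4me3, a histone mark of active promoters, was mapped in cortex tissue of adult C57BL/6J mice by ChIP-seq, and the values at the genes of RNA splicing factors are described here. The genes were chosen by symbol: those of the SR and related proteins (Srsf), the heterogeneous nuclear ribonucleoproteins (Hnrnp), the SF3A and SF3B complexes, the small nuclear ribonucleoproteins whose symbols begin with Snrp, the pre-mRNA processing factors (Prpf), U2AF, and the RNA-binding motif (Rbm) and Rbfox proteins. It found 82 genes among the 10543 named genes of the deposited tables, with 89 regions among 14881, and each gene is represented by its region of highest mean. 78 of the 82 genes had 1 region and 4 had several. Hnrnpa1, Hnrnpa2b1 and Rbfox3 were not analysed here.

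The mice were 3 months old and had received nicotine, or saccharin as the control, during development. 14 libraries fell into 4 groups: postnatal-only saccharin (4 libraries), postnatal-only nicotine (4), pre- and postnatal saccharin (3) and pre- and postnatal nicotine (3). All samples carry a single treatment description: drinking solutions reached pregnant females from conception, were withdrawn from the offspring at day 21, and the mice were left until day 90. No course limited to the time after birth is described there, and that exposure is taken from the group names alone. Whether replicates came from separate animals is not stated, so p-values measure the spread between these samples, which may be technical. Whole tissue was used, so a change in the mix of cells and a change of the mark within a cell cannot be told apart.

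In the nucleus, introns are removed from new transcripts by the spliceosome, which is built anew on each intron from small nuclear ribonucleoproteins and many further proteins. SR proteins mostly promote and Hnrnp proteins often repress the use of an exon, while U2AF and the SF3 complexes recognise the end of the intron and its branch point. In neurons, Rbfox proteins set the inclusion of many alternative exons that other cells use differently. H3K4me3 lies around the start sites of such widely expressed genes, and its level describes the promoter, not the amount of mRNA or protein.

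The promoter sequences are shown first, since the level of the mark differed widely between the genes. RefSeq promoters (assembly GRCm38.p6) of 300 bases, 250 before and 50 after a start site, were found for 69 of the 82 genes, 92 promoters in all. The tables use build mm9, so whether a given start lies inside the measured region was not checked. Median G+C content was 60.8% for the splicing factor promoters and 61.3% for the 10614 promoters of all genes with a region in the tables. The median ratio of observed to expected CpG was 0.886 against 0.750, and 82.6% against 66.8% were CpG-rich (G+C over 50% and a ratio above 0.6). Among all 32851 mouse promoters of the reference 33.3% were CpG-rich.

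The 100 bases before the start site are given for 6 genes, with every CpG in capitals. In signal per kb of postnatal saccharin samples, Hnrnpu and Hnrnpab were the highest, and Rbmxl2, Rbm19 and Rbmx2 were among the 5 lowest. Rbfox1, a low gene but not of the lowest, was taken for its small number of CpG after this was seen. The windows are those of Hnrnpu (chr1:178337816-178337915, minus strand), Hnrnpab (chr11:51606882-51606981, minus strand), Rbmxl2 (chr7:107209345-107209444, plus strand), Rbm19 (chr5:120116413-120116512, plus strand), Rbmx2 (chrX:48694904-48695003, plus strand) and Rbfox1 (chr16:5884693-5884792, plus strand).
Hnrnpu: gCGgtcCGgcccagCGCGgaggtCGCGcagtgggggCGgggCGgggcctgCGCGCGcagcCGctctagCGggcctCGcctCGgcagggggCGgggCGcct
Hnrnpab: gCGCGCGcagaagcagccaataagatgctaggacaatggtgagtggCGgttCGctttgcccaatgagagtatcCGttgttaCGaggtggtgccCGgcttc
Rbmxl2: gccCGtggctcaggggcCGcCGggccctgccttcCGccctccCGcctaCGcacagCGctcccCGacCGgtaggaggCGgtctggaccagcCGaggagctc
Rbm19: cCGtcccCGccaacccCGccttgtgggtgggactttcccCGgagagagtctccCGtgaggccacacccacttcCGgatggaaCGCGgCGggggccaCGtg
Rbmx2: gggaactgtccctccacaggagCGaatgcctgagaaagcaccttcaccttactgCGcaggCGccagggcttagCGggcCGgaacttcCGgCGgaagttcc
Rbfox1: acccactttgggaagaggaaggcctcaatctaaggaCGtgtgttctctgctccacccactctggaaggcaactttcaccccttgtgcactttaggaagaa
Hnrnpu, the gene with the most signal per kb in postnatal saccharin samples, had 17 CpG in this window and Hnrnpab, the next, had 8. The low genes Rbmxl2, Rbm19 and Rbmx2 had 11, 10 and 7, and Rbfox1 had 1, so the CpG number of this window did not order these 6 genes by signal. Over the 69 genes, signal per kb in postnatal saccharin samples was higher with higher G+C content (Spearman's rho 0.57) and a higher CpG ratio (rho 0.46). These are descriptions across genes measured in the same libraries. Any dependence of the libraries on base composition was not measured.

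A short element, TCTCGCG searched on both strands, lay in 14.1% of the splicing factor promoters, in 5.07% of promoters of genes in the tables and in 2.56% of all promoters. It was found in 13 promoters of 11 genes: Hnrnph3, Rbm15, Rbm26, Rbm38, Rbm39, Sf3b2, Snrpg, Srsf10, Srsf13b, Srsf3 and Srsf4. The windows of 3 of them show it in capitals, as TCTCGCG or its reverse complement CGCGAGA: Rbm39 (chr2:156180239-156180338, minus strand), Srsf10 (chr4:135855971-135856070, plus strand) and Rbm26 (chr14:105177315-105177414, minus strand).
Rbm39: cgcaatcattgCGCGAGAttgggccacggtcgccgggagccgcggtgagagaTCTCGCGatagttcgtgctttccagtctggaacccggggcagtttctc
Srsf10: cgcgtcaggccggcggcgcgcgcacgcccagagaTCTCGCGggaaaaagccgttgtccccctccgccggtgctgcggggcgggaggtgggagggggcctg
Rbm26: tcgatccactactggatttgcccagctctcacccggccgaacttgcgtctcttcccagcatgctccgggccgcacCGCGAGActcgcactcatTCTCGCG
The ETS motif CCGGAAG was in 27.2% of the splicing factor promoters against 15.3% of promoters of genes in the tables, and CCAAT in 45.7% against 37.3%. The GC box GGGCGG was in 58.7% against 64.6%, AAGATGG in 5.43% against 6.60%, TGCGCA in 16.3% against 13.4%, TGACGTC in 7.61% against 5.29% and CACGTG in 13.0% against 9.90%. All were searched on both strands and none of these motifs contains another, and a match is a description of letters, not a bound site.

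TATAAA, the core of the TATA box, was in 10.9% of the splicing factor promoters against 7.11% of promoters of genes in the tables. In 2 SR protein genes it lay shortly before the start site and is in capitals: Srsf2 (chr11:116853095-116853194, minus strand) and Srsf3 (chr17:29032560-29032659, plus strand).
Srsf2: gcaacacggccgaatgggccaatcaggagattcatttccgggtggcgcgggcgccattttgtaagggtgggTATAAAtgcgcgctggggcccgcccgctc
Srsf3: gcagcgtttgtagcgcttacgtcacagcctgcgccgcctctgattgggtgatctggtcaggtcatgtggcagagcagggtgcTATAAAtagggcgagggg
The other genes with a match were Hnrnpab, Hnrnpm, Rbm25, Rbm43, Rbmx, Rbmx2, Snrpa and Snrpn.

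The libraries were compared before the genes. Values are read counts per region that the submitters had already adjusted, called signal below, so raw depth is unknown and no counting intervals are given. The postnatal libraries summed to between 2004920 and 2489860, the pre- and postnatal ones to between 1445810 and 2372860. The tables were adjusted separately, so levels are not compared between them. Within each postnatal group, library 1 differed from 2, and 3 from 4, by no more than sampling noise (variance 1.01 to 1.08 times that of counting, against 2.21 to 2.71 for other pairs). The mean of such a pair served as a single sample, leaving 2 against 2 in the postnatal and 3 against 3 in the pre- and postnatal comparison. The pre- and postnatal nicotine samples are numbered 1, 3 and 4, and their values are always listed in that order. The 15 strongest regions held 8.30 to 25.5% of a postnatal library's signal and 19.1 to 49.7% of a pre- and postnatal library's. In the postnatal groups this share was high in saccharin libraries 3 and 4 and nicotine libraries 1 and 2 and low in the others. Of the cell type markers, 14 of 19 for cortical neurons had a region, as had 4 of 9 for astrocytes, 8 of 11 for oligodendrocytes, 5 of 9 for endothelial and mural cells and 1 of 9 for microglia. No marker list with several regions was at 0, and Irf8, the only microglial marker with a region, had 1.41 to 11.4.

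Most splicing factor genes lay above the middle of the measured regions, a description with no test over genes. The median signal per kb in postnatal saccharin samples was 81.4 for the 82 genes, 61.1 for all named genes and 50.2 for all regions, and 59 of the 82 lay above the median region. In pre- and postnatal saccharin samples the medians were 49.9, 37.0 and 32.0, and 58 of 82 lay above. Their regions were also wider, with a median of 1836 bp against 1657 bp for the strongest regions of all named genes and 1583 bp over all regions. The order of the genes was nearly the same in both tables (Pearson's r = 0.97 over 82 genes, on a log2 scale, between separate sets of libraries).

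**Figure D1:**
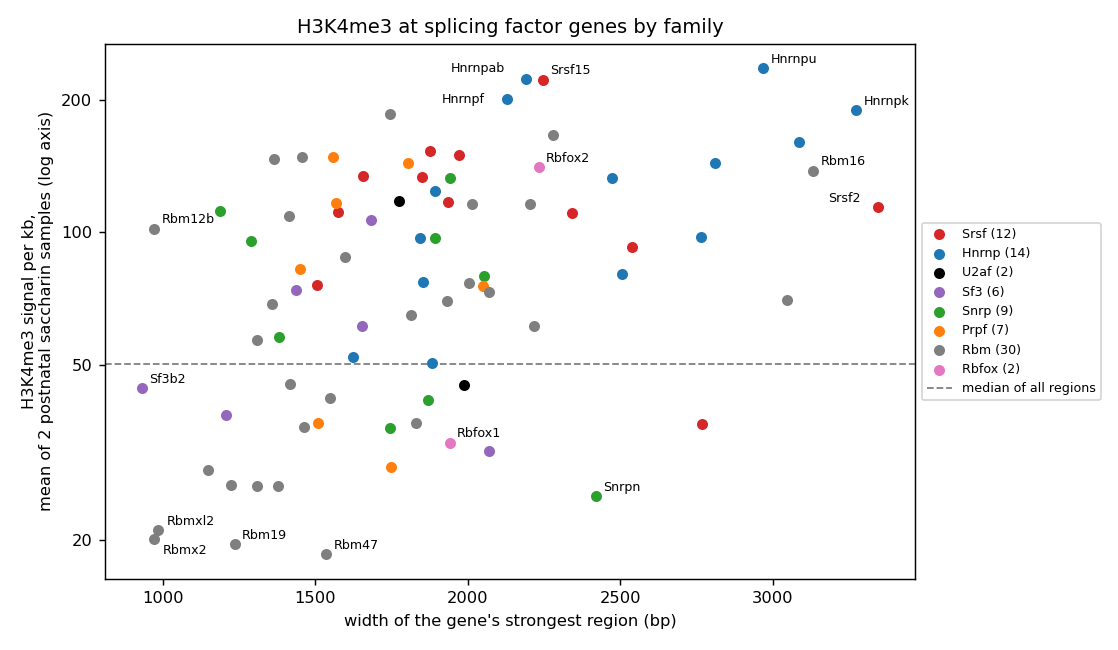
Signal per kb (log axis, mean of 2 postnatal saccharin samples) against the width of the gene's strongest region in bp, 1 point per gene, coloured by family with the number of genes in brackets. The Hnrnp points reach 236 per kb and widths over 3000 bp, while the points under 30 per kb are Rbm genes, Snrpn and Prpf38a.

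Unless stated otherwise, values per kb from here to the Rbfox genes are of postnatal saccharin samples. Among the splicing regulators, the Hnrnp genes had a median of 128 per kb over 14 genes and the Srsf genes 116 over 12. These 12 include Srsf15 and Srsf2ip, which no longer carry Srsf symbols. Hnrnpu, a nuclear scaffold and RNA-binding protein, was the highest of all in postnatal saccharin samples with 236 per kb. These 2 samples had 708 and 692 over 2969 bp (chr1:180265669-180268638, mm9). Hnrnpab followed with 222 per kb, then Srsf15 (now named Scaf4, a binder of RNA polymerase II) with 222, Hnrnpf with 201 and Hnrnpk, which binds C-rich RNA, with 189. The postnatal saccharin values were 497 and 478 for Hnrnpab, 454 and 401 for Hnrnpf and 684 and 553 for Hnrnpk, so Hnrnpf and Hnrnpk cannot be ordered beyond their spread. Srsf15 had 538 and 459, so it cannot be ordered against Hnrnpab or Hnrnpu beyond the spread of its samples. In pre- and postnatal saccharin samples Hnrnpab was the highest with 150 per kb, and Hnrnpu had 138.

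The lowest Hnrnp genes were Hnrnpm with 50.5 per kb and Hnrnpc, which coats nascent transcripts and covers sites that U2AF could bind, with 51.9. Among SR genes the lowest was Srsf3 at 36.6 per kb over a wide region of 2768 bp. Srsf1, the founding SR protein, had 133, Srsf2 114 and Srsf7 92.7 per kb. Srsf2 had the widest region of all, 3346 bp, ahead of Hnrnpk with 3273 bp and Rbm16 (now Scaf8) with 3132 bp.

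Between these ends the regulators were mostly strong. Hnrnpa0 had 160 per kb, Hnrnpd, which binds AU-rich RNA, 144, Hnrnpul2 132 and Hnrnpul1 124. Hnrnph3, Hnrnph1, Hnrnpa3 and Hnrnpl, the last a binder of CA repeats, had 97.7, 96.8, 80.5 and 77.02. Of the genes with Srsf symbols, Srsf6 had 153, Srsf2ip 150, Srsf10 134, Srsf5 117, Srsf11 111, Srsf4 111 and Srsf13b (now Srsf12) 75.9 per kb. All 14 Hnrnp genes and 11 of the 12 with Srsf symbols thus lay above the region median of 50.2.

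The families of core spliceosome genes had lower medians. The 9 Snrp genes encode Sm proteins, which ring most of the small nuclear RNAs, and proteins specific to the U1 and U2 particles. Their median was 79.5 per kb, from Snrpb at 133 to Snrpn at 25.1. Snrpn, the imprinted and neuron-rich relative of Snrpb, was among the 5 lowest of all 82 genes here, with 51.6 and 70.0 over 2420 bp. In pre- and postnatal saccharin samples, with 22.7 per kb, it was not among the 5 lowest. The 7 Prpf genes had a median of 82.4, with Prpf38b highest at 148 and Prpf38a lowest at 29.3. Prpf8, at the catalytic centre of the spliceosome, had 82.4 and Prpf19, of the complex that stabilises the active spliceosome, 75.3. The 6 SF3 genes had a median of 52.7, from Sf3b1, the largest protein of the branch point complex, at 106 to Sf3b4 at 31.7. Sf3a1 had 61.2, and Sf3b2 had the narrowest region of all, 931 bp. The U2AF pair differed: U2af1, the small subunit that reads the AG at the intron's end, had 118 per kb, and U2af2, the large subunit that binds the pyrimidine tract, had 45.02.

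The 30 Rbm genes, a group joined by an RNA-binding domain more than by a shared role, covered almost the whole range with a median of 66.8. Rbm33 was highest at 186 per kb, and Rbm39, a U2AF relative, had 116. In postnatal saccharin samples the lowest of all 82 genes were Rbm47 at 18.5, Rbm19 at 19.5, Rbmx2 at 20.03 and Rbmxl2 at 21.0. Rbmxl2 is a germ cell relative of Rbmx. Rbm47 and Rbm19 cannot be ordered against the others beyond the spread of their samples. In pre- and postnatal saccharin samples Rbmxl2 was the lowest with 13.1 per kb, and Rbm19 had 18.6. Rbm12b and Rbmx2 had narrow regions of 972 and 971 bp, yet Rbm12b had 102 per kb. Rbm8a, a core protein of the exon junction complex, had 26.7. Rbm5 and Rbm6, which both regulate exon choice, lie near each other on chromosome 9 (chr9:107671833-107673662 and chr9:107774064-107775428, mm9) and differed widely, with 36.9 and 147 per kb. Rbm15b, Rbm17 and Rbm16 were among the strong members, with 166, 148 and 138, and Rbm46, a germ cell protein, among the weak ones with 26.5.

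The genes of the set on chromosome X were 3, and all were low. Rbm3, a cold-inducible protein, had 28.8 per kb, Rbmx 26.5 and Rbmx2 20.03, beside a median of 26.8 for the 340 named X-linked genes. Their levels were close to the median of that chromosome's genes.

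The 2 Rbfox genes stood far apart. Rbfox2 had 141 per kb and Rbfox1, expressed mainly in neurons and muscle, 33.2. Both are long genes with several regions, and the regions of a gene differed in their share of its signal. The main Rbfox2 region (chr15:77135856-77138089, mm9) had 322 and 305 in postnatal saccharin samples, while the other regions had 6.71 to 10.1 and 9.33 to 16.5. Rbfox1 was spread more evenly: its regions had 58.0 and 70.8, 29.7 and 35.4, 10.8 and 18.2, and 1.54 and 1.41. Hnrnpf had 454 and 401 in its main region and 73.4 and 78.1 in the other. Srsf11 had 170 and 180 in its main region of 1575 bp and 111 and 114 in the other, of 1944 bp, a smaller gap than in Rbfox2 or Hnrnpf.

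**Figure D2:**
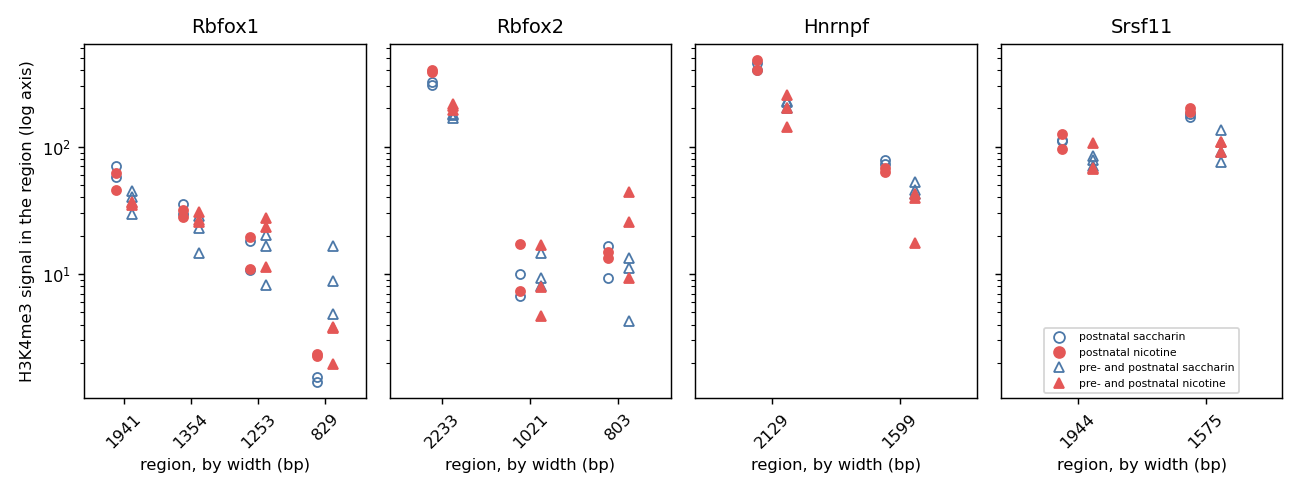
Signal (log axis) of each region of the 4 genes with several regions, labelled by width in bp, 1 point per sample. Circles are postnatal and triangles pre- and postnatal samples, open for saccharin and filled for nicotine; the main Rbfox2 region lies far above its other regions, while the regions of Srsf11 lie closer to each other.

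The first comparison asked whether H3K4me3 at these genes differed after postnatal nicotine. No splicing factor gene passed the test (limma with trend on log2 of signal plus 1, Benjamini-Hochberg adjusted over 14873 regions, two-sided, threshold 0.05; smallest adjusted p 1.00), and 0% of all regions did. On the log2 scale 51 genes were above 0 (62.2%, beside 49.1% of all regions) and 31 below. The median difference was 0.029 over the genes and -0.0036 over all regions. Without saccharin libraries 3 and 4 the genes' median was 0.0066, with 43 of 82 higher, and without saccharin libraries 1 and 2 it was 0.058. The median 95% interval of a gene, unadjusted for the number of regions, reached 0.28 to either side, a 1.21-fold difference. Smaller differences could not be resolved, and larger ones could also miss the adjusted threshold. At an unadjusted p under 0.05 there were 3 genes, all with higher values in nicotine, beside 0.961% of all regions higher at that level.

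These 3 were Rbfox2, Rbm22 and Rbm38. Rbfox2, the splicing regulator of neuronal and many other exons, had 322 and 305 in saccharin and 386 and 401 in nicotine samples. Both nicotine samples lay above both saccharin samples, and the difference was 0.33 ± 0.10 (log2, SE; 1.25-fold, limma adjusted p = 1.00), or 0.29 to 0.36 with any 1 sample left out. Compared within the pair of samples with a high share of signal in the strongest regions the difference was 0.34, and within the pair with a low share 0.32. With that class (a high or low share, set from these data) as a term in the fit, Rbfox2 had the smallest adjusted p of the 82 genes, 0.28, and still did not pass.

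Rbm22, which contacts RNA near the catalytic centre of the spliceosome, had 158 and 145 in saccharin and 200 and 168 in nicotine samples (0.28 ± 0.13, log2, SE). The difference was 0.47 within the high and 0.09 within the low pair. Rbm38, a p53 target that binds AU-rich RNA, had 158 and 151 against 173 and 197 (0.26 ± 0.12). Its difference was 0.20 within the high and 0.32 within the low pair.

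Of the other genes with the lowest p, Srsf2ip (now Scaf11, an SR-related protein) had 300 and 289 in saccharin and 314 and 370 in nicotine samples (0.21, and 0.092 without nicotine libraries 3 and 4). Hnrnpab had 497 and 478 against 571 and 548. Among genes with lower values in nicotine, U2af2 had 82.3 and 96.6 in saccharin and 78.9 and 64.2 in nicotine samples (-0.32 ± 0.18). Its differences were -0.29 and -0.35 within the high and low pairs, and -0.47 to -0.17 with 1 sample left out. Prpf19 had 150 and 159 against 131 and 130, and Sf3a1 103 and 99.1 against 81.7 and 88.1. Nicotine lay below saccharin in both, with differences of -0.24 ± 0.13 and -0.25 ± 0.16. Rbmxl2 had 21.1 and 20.4 against 16.2 and 11.9 (-0.55 ± 0.41, log2, SE). This is a weak region with a wide 95% interval, 0.87 to either side. Rbfox1 had 58.0 and 70.8 against 45.9 and 61.7 in its main region, and its groups overlapped there (-0.26, and -0.055 without nicotine libraries 1 and 2). Its weaker regions differed by -0.11, 0.42 and 0.05, the 0.42 in a region with 1.54 and 1.41 in saccharin samples.

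By family, values in postnatal nicotine were higher for 9 of 12 Srsf, 10 of 14 Hnrnp, 1 of 2 U2AF, 3 of 6 SF3, 4 of 9 Snrp, 4 of 7 Prpf, 19 of 30 Rbm and 1 of 2 Rbfox genes. Of all regions 49.1% were higher, and none of these genes passed the test. Beside these counts, the summed signal of the 14 neuronal markers was 1994 to 2047 in saccharin and 2073 to 2105 in nicotine samples, and that of the 8 oligodendrocyte markers 564 to 580 and 599 to 622. The 4 astrocyte markers overlapped (510 to 526 and 498 to 536), as did the 5 endothelial and mural markers (203 to 239 and 218 to 234). The part of these markers in the gene values was not tested. The groups did not overlap for 27 genes: nicotine was above in 18 (21.95%, beside 15% of all regions) and below in 9 (10.98%, beside 14%). Besides the genes named above, nicotine was above in Hnrnpa3, Hnrnpc, Rbm15b, Rbm17, Rbm24, Rbm26, Rbm6, Sf3b1, Snrpd1, Srsf10, Srsf11, Srsf6 and Srsf7, and below in Rbm28, Rbm3, Rbm34, Rbm45 and Snrpa. Among them Sf3b1 had 181 and 177 in saccharin and 190 and 228 in nicotine samples, and Rbm24 128 and 108 against 130 and 140. Rbm6 had 200 and 200 against 207 and 202, so that some of these gaps were a few percent of the signal.

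The 51 genes with higher values became 46 after quantile normalization, beside 49.6% of all regions higher. When each sample was scaled to one median the count was 60, with 59.7% of all regions higher and their median at 0.045. The count was 45 within the high and 47 within the low pair of samples, beside 49.2% and 48.8% of all regions.

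Values also differed between the classes of samples. A fit set the 2 samples with a high share against the 2 with a low share, with nicotine as a further term. In it 4 of the 82 genes passed the adjusted threshold (4.88%, beside 5.92% of all regions). The classes were set from these same samples, so p-values here describe that split and are not an independent test. Prpf8 had 92.2 and 124 in the high and 147 and 146 in the low samples (-0.45 ± 0.13, limma adjusted p = 0.012). Hnrnpm had 82.2 and 76.5 in the high and 108 and 112 in the low samples (-0.46 ± 0.14).

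Rbm5 was higher in the high samples, with 83.5 and 79.3 against 51.5 and 60.1 (0.54 ± 0.17). Rbm8a was too, with 46.7 and 36.5 against 18.6 and 29.7 (0.78 ± 0.24). Across the 82 genes the class difference fell with signal (r = -0.51, and -0.46 over all regions, a description over regions of the same libraries). Genes with much signal thus tended to be lower, and genes with little signal higher, in samples with more signal in the 15 strongest regions. Each postnatal group holds 1 sample of each class, so the class is balanced between the groups.

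**Figure D3:**
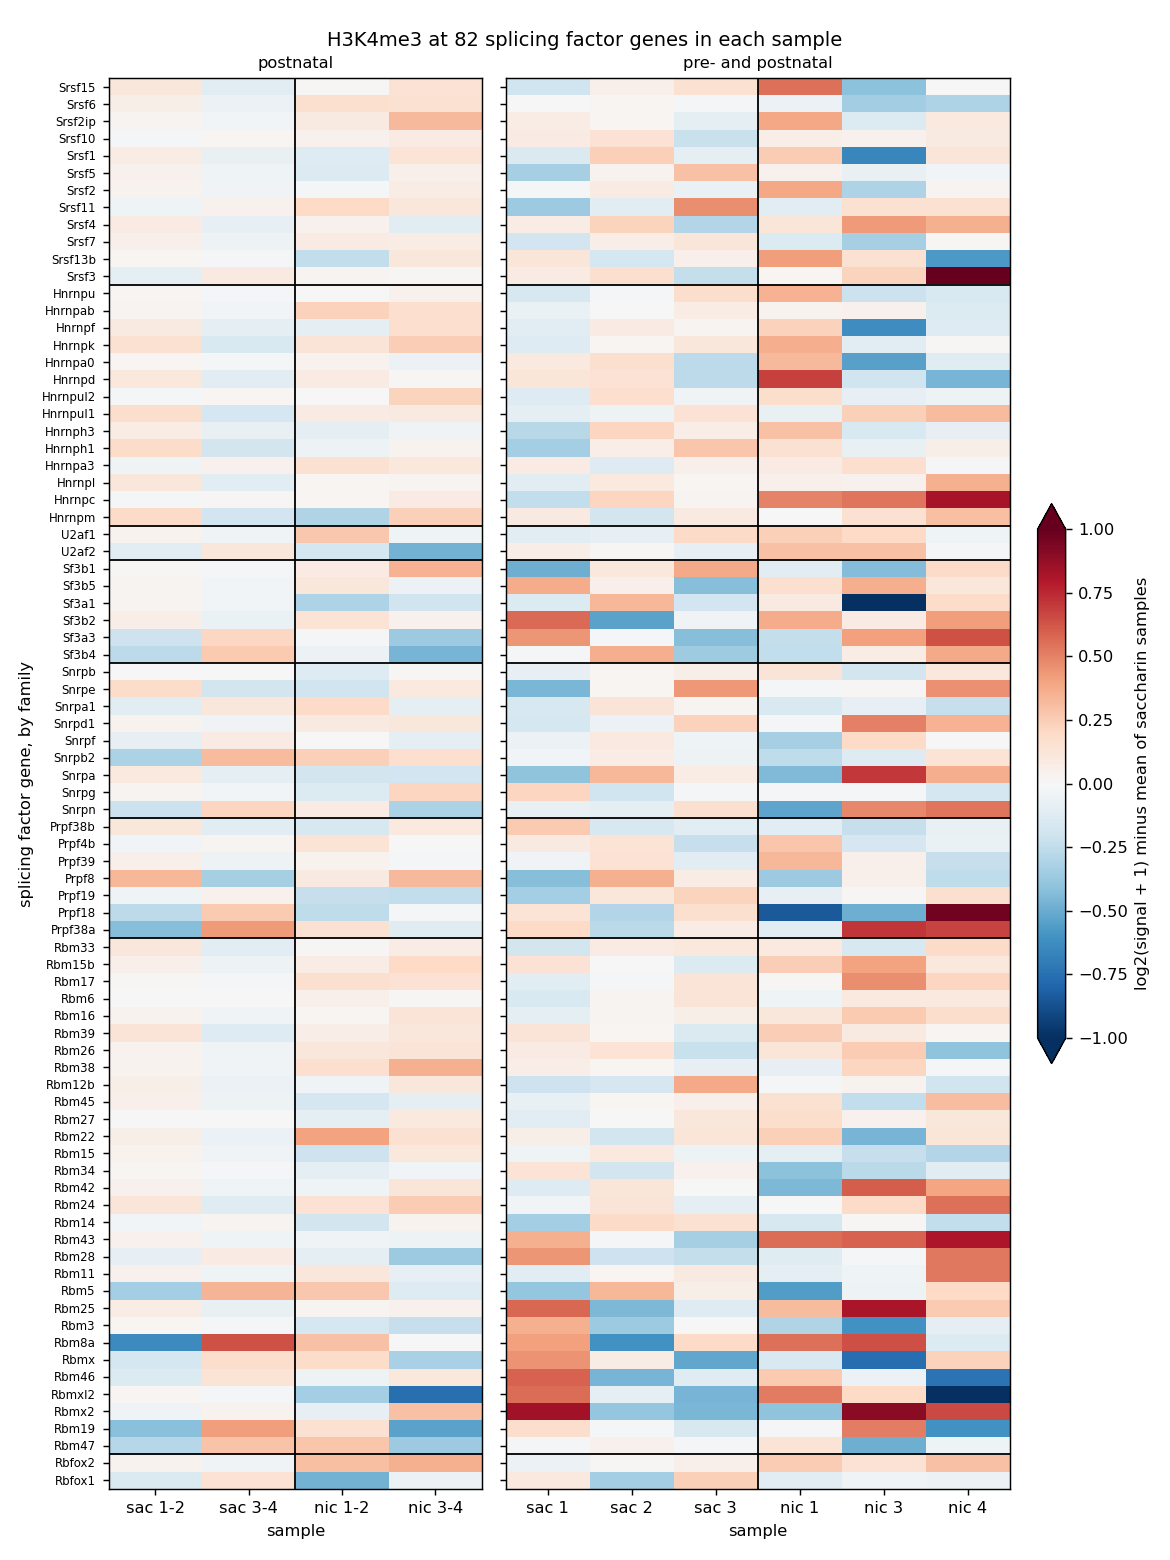
log2(signal + 1) of each of the 82 genes in each sample minus the mean of the table's saccharin samples, with genes in rows by family and samples in columns (sac, saccharin; nic, nicotine; colours stop at -1 and 1). The postnatal columns are paler than the pre- and postnatal ones, and in weak genes such as Rbm47 and Rbm19 the 2 saccharin columns differ visibly from each other.

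The second comparison asked the same after nicotine before and after birth. Again no splicing factor gene passed (smallest limma adjusted p 0.99 over 14879 regions; 0% of all regions passed). As many as before, 51 genes, were above 0 (62.2%, beside 50.5% of all regions) and 31 below. The median was 0.045 over the genes and 0.0027 over all regions. The genes' median was 0.024 without nicotine sample 1, 0.100 without nicotine sample 3 and 0.010 after quantile normalization. The 2 sets of 51 genes share 35. The spread was wider here, with a median unadjusted 95% margin of 0.43 on the log2 scale, a 1.35-fold difference. At an unadjusted p under 0.05 there were 2 genes, both higher in nicotine, beside 1.72% of all regions higher at that level.

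Hnrnpc had 36.5, 50.6 and 44.4 in saccharin and 61.5, 63.6 and 77.6 in nicotine samples. Every nicotine sample lay above every saccharin sample, with a difference of 0.62 ± 0.24 (log2, SE; 1.53-fold, limma adjusted p = 0.99). Left-out samples moved it between 0.49 and 0.73. Rbm43, an RNA-binding protein of little known function, had 49.8, 38.2 and 30.6 in saccharin and 57.8, 59.0 and 68.7 in nicotine samples (0.65 ± 0.25, 1.57-fold, limma adjusted p = 0.99). Here too the groups were apart, although saccharin sample 1 came close to nicotine sample 1.

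Both genes lay below the middle in pre- and postnatal saccharin samples, with 27.0 per kb for Hnrnpc and 30.2 for Rbm43. The medians there were 49.9 over the 82 genes and 32.0 over all regions. The 100 bases before their RefSeq start sites are shown with every CpG in capitals: Hnrnpc (chr14:52104022-52104121, minus strand) with 11, and Rbm43 (chr2:51935164-51935263, minus strand) with 6.
Hnrnpc: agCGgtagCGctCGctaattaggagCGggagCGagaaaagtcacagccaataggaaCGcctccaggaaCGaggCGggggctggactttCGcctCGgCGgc
Rbm43: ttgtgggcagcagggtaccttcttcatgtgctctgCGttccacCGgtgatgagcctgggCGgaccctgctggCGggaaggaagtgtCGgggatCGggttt

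Rbfox2 was again above saccharin in every nicotine sample: 170, 177 and 182 in saccharin and 210, 195 and 216 in nicotine (0.23 ± 0.14, 1.17-fold). The other gene of this kind was Rbm16, with 256, 278 and 283 against 295, 326 and 307. Srsf6, a broadly acting SR protein, had 198, 200 and 195 in saccharin and 190, 155 and 159 in nicotine samples (-0.24 ± 0.15). Its saccharin samples were close together and all nicotine samples lay below them. Rbm15, a partner of the RNA methylation machinery, was likewise lower, with 123, 135 and 122 against 119, 108 and 103.

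The remaining genes with low p overlapped between the groups. Srsf4 had 158, 175 and 122 in saccharin and 164, 202 and 192 in nicotine samples (0.30, and 0.15 without saccharin sample 3). Srsf3 had 75.9, 80.6 and 60.6 against 72.8, 83.8 and 147, so that 1 nicotine sample made its difference (0.42 ± 0.23, and 0.12 without it). Rbm15b had 226, 203 and 185 against 243, 271 and 220, with a single nicotine value under the highest saccharin value.

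Among lower values, Rbm34 had 98.8, 78.9 and 92.6 in saccharin and 67.2, 74.4 and 83.4 in nicotine samples. Rbm3 had 39.4, 23.6 and 30.7 against 24.6, 19.8 and 28.5 (-0.34, and -0.16 without saccharin sample 1). Hnrnpf had 203, 231 and 223 against 256, 142 and 200. Nicotine sample 3, with 142, was the lowest and nicotine sample 1, with 256, the highest of all 6. The Hnrnpf difference of -0.17 ± 0.18 became 0.050 without nicotine sample 3. In the other, weaker Hnrnpf region the difference was -0.57 ± 0.32, with overlapping groups.

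By family, values were higher in pre- and postnatal nicotine for 8 of 12 Srsf, 10 of 14 Hnrnp, 2 of 2 U2AF, 4 of 6 SF3, 5 of 9 Snrp, 4 of 7 Prpf, 17 of 30 Rbm and 1 of 2 Rbfox genes, none of which passed the test. Nicotine lay above saccharin without overlap in 4 genes (4.88%, beside 4.49% of all regions) and below in 2 (2.44%, beside 4.46%). These shares are near those of all regions. The count of 51 higher genes became 43 after quantile normalization, 45 when samples were scaled to one median, 43 without nicotine sample 1 and 58 without nicotine sample 3. Of all regions 50.5% were higher in the main fit and 46.8 to 50.9% under these settings.

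Single samples of both groups stood out in the families of strong genes. Saccharin sample 1 was the lowest of the 6 for 7 of 14 Hnrnp genes and for 24 of all 82, more than any other sample. Such counts were not made over all regions. Nicotine sample 1 was the highest of the 6 for 7 of 14 Hnrnp and 5 of 12 Srsf genes and the lowest for 0 of both, while it was the lowest for 4 of 9 Snrp genes. Nicotine sample 3 was the lowest for 6 of 12 Srsf genes. Hnrnpd, for example, had 234, 238 and 179 in saccharin and 347, 188 and 156 in nicotine samples, and Srsf15 had 222, 264 and 284 against 374, 192 and 254. The spread within the nicotine group was wider than the gap between the groups in both.

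Nicotine sample 1 had the lowest share of signal in the 15 strongest regions, 19.1%, and nicotine sample 3 the highest, 49.7%. The splicing factor genes held 0.682% of all signal in the former and 0.373% in the latter, and 0.844% and 0.741% with the 15 regions left out. The summed neuronal markers were 1270 to 1311 in saccharin and 1166 to 1457 in nicotine samples. The part of these shares and markers in the gene counts was not tested.

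**Figure D4:**
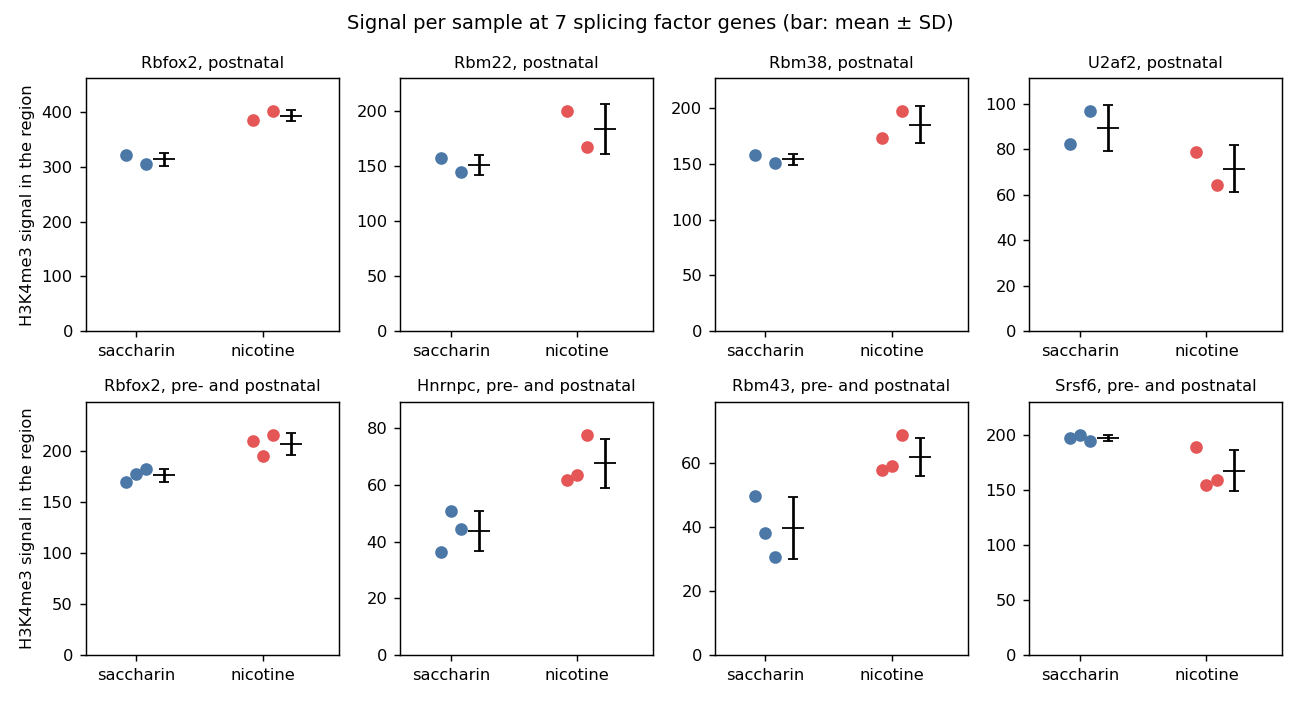
Signal in the gene's region for each sample (points) with the mean and SD (bars) in saccharin (blue) and nicotine (red) samples, for 4 genes after postnatal and 4 after pre- and postnatal exposure. Nicotine samples lie above saccharin in every panel except U2af2 and Srsf6, where they lie below; none of these differences passed the adjusted threshold.

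The exposures were then compared with each other. In a joint fit of the difference between the 2 nicotine effects no gene passed (smallest limma adjusted p 1.00, 0% of all regions) and 0 of 82 had an unadjusted p under 0.05, beside 1.47% of all regions. The lowest p belonged to Rbm43, whose difference was -0.04 after postnatal and 0.65 after pre- and postnatal nicotine (0.70 ± 0.34 between them). Srsf6 went from 0.15 to -0.24, and its samples did not overlap in either table, with nicotine above in the first and below in the second. Hnrnpc went from 0.05 to 0.62 and U2af2 from -0.32 to 0.19. These changes between exposures were thus not distinguishable from the spread of the samples.

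The same sign in both exposures was seen for 50 of the 82 genes, 35 higher and 15 lower, or 61.0% beside 50.2% of all regions, and 32 genes had opposite signs. The exposures have separate saccharin controls. Over the 82 genes the 2 sets of differences had a correlation of r = 0.20, and over all regions of -0.03, both descriptions across regions. Nicotine lay above saccharin without overlap in both exposures for Rbfox2 and Hnrnpc, 2 of 82 genes, beside 0.935% of all regions. Rbfox2 had differences of like size in both, 0.33 and 0.23, whereas the postnatal difference of Hnrnpc was small: 83.7 and 84.8 in saccharin and 85.2 and 89.5 in nicotine samples.

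**Figure D5:**
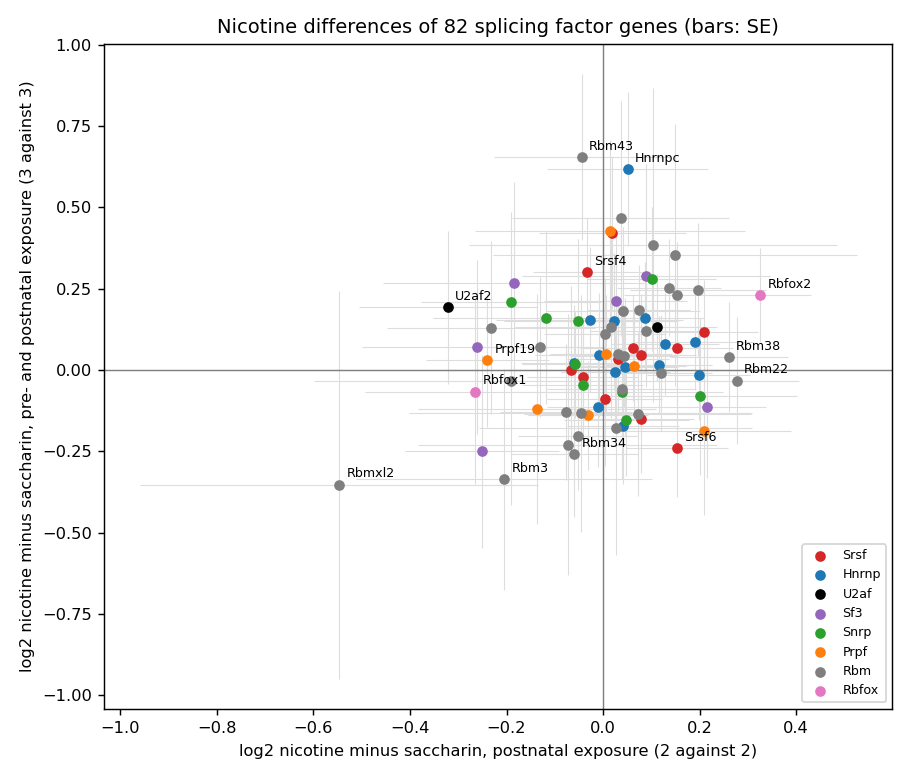
log2 difference of nicotine minus saccharin after postnatal (x axis) and pre- and postnatal exposure (y axis) for the 82 genes, coloured by family, with SE bars. Most points lie within 0.3 of 0 on both axes; Rbfox2 lies at the right, Rbm43 and Hnrnpc at the top, and Rbmxl2 far left with wide bars.

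Other genes of the pathway were taken from a fixed list of 147 further splicing genes, of which 106 had a region. Their median signal per kb in postnatal saccharin samples was 78.5, close to the 81.4 of the 82 genes. None passed the test in either exposure. After postnatal nicotine 59 were higher and 47 lower (median 0.02), and after pre- and postnatal nicotine 63 and 43 (median 0.06). The higher ones were 55.7% and 59.4%, beside 49.1% and 50.5% of all regions. Among those with low p in the postnatal comparison was Dnajc8, a spliceosome-associated chaperone, with 244 and 199 in saccharin and 267 and 263 in nicotine samples (0.26, and 0.12 without saccharin libraries 3 and 4), and Ddx46 differed by 0.20. Tra2a, a splicing activator with SR domains, had 255 and 234 against 203 and 212. Rnps1 (-0.24) and Sugp2 (-0.22) were the next lower ones, and Rnps1 was -0.067 without nicotine libraries 1 and 2.

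In the pre- and postnatal comparison Magoh, the partner of Rbm8a in the exon junction complex, had 43.7, 55.1 and 45.9 in saccharin and 48.1, 82.7 and 91.3 in nicotine samples, and Cwc27 differed by 0.72. Elavl2, a neuronal RNA-binding protein, had 162, 153 and 145 against 144, 99.9 and 111, all nicotine samples below saccharin. Lsm2 (-0.48) and the weak region of Gemin6 (-1.06) also had lower values, with overlapping groups. The difference of Lsm2 was -0.26 without nicotine sample 1, and that of Gemin6 -0.39 without nicotine sample 3.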

How the data were processed

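H3K4me3 ChIP-seq signal was read from 1 deposited table per exposure (build mm9). The deposited signal values are read counts that the authors adjusted; edgeR is named in the submitters' processing notes. They are not whole, so no count model was used. For the aligner, the peak caller and all versions, the sources used here give nothing. Of 19203 rows per table, 4322 repeated a region with empty values and were left out. Libraries 1 and 2, and 3 and 4, of a postnatal group were averaged.

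Each table was fitted on its own with limma 3.58.1 (trend, R 4.3.3) on log2(signal + 1), keeping regions that reached 1 in a number of samples equal to the smaller group; p was adjusted by Benjamini-Hochberg, with a threshold of 0.05. The fit was run on simulated data as a check of the code. How often small differences were called there is not reported here. Signal per kb is the region's signal over its width. Coordinates of regions are as deposited.

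The members and lists were chosen with earlier results of these data known. Named genes were, by rule, the 5 of lowest p per exposure and direction, the 4 of the exposure difference, the 5 highest and 5 lowest in signal per kb, the widest 3 and narrowest 3 regions, the extremes of each family, 20 measured genes by role, 3 per direction of the other splicing genes (some are not reported here) and all on chromosome X. Further names (genes without overlap, other members in a family, with several regions, called by class, or with motifs) were chosen after their values were seen. Plots used Python 3.11.15 and matplotlib 3.10.9.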

Additional observations from a re-analysis of the deposited data

How the results depend on the processing

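The count of splicing factor genes past the threshold was 0 in both exposures and in the difference between them, and stayed 0 under every alternative run for each: other pseudocounts (0.5 and 5), no filter or a mean of at least 20, quantile or median scaling, summed regions, no variance trend, 8 libraries as samples, the class or the share of the strongest regions as a term, and each replicate left out. The smallest adjusted p under any of them was 0.28. With a replicate block the count was also 0. Same-numbered samples did not deviate together (r = -0.46 postnatal, -0.11 and -0.098 pre- and postnatal), and the crossed postnatal pairing, which is the class term, gave 0 calls. The postnatal median of 0.029 became 0.078 when samples were scaled to one median, as the median of all regions moved too. Without each pre- and postnatal replicate in turn the difference of Hnrnpf ran from -0.37 to 0.050, and it reversed without nicotine replicate 3. Groups of 2 and 3 samples and unknown depth limit the precision.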
